A study of Mus musculus with 10 samples.

Results

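The genes described here are 58 splicing regulators: SR and hnRNP proteins and the neuronal RNA-binding proteins that set which exons an mRNA keeps. They were chosen by gene symbol and by no cut on a measured value, but with earlier results of these data known. All 58 were found among the 29883 genes of the count table. The study measured gene expression by RNA-seq in the nucleus accumbens (NAc), a ventral striatal region, of ethanol-naive male mice of a pair of inbred strains, to describe basal strain differences in the splicing of ninein. The groups were 5 C57BL/6J (B6) and 5 DBA/2J (D2) mice, dissected at 9 weeks of age, with 1 poly-A library per mouse and no treatment in either strain. Each library came from a mouse of its own, so the spread between libraries includes the spread between animals. Both strains are inbred, so the mice of a strain share a genotype and the strain difference covers every locus at which B6 and D2 differ. Reads of both strains were aligned to the B6 genome.

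Splicing regulators bind pre-mRNA near splice sites and recruit or block the spliceosome. SR proteins mostly promote the use of nearby exons, while many hnRNP and PTB proteins silence them, and RBFOX, NOVA, CELF, MBNL, neuronal ELAV, STAR and SRRM4 proteins give neurons and muscle their own exon choices, often activating or silencing an exon according to where they bind. A gene count sums all transcripts of a gene, so neither the isoforms of these regulators nor the splicing of their targets was measured here.

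Between 96977262 and 116776714 reads per library were counted on genes. The NAc identity was checked with 10 striatal projection neuron markers, among them Ppp1r1b and Drd1, which had a summed level of 527876 to 677330 normalised read counts in B6 and 445125 to 538749 in D2, with 6 of the 10 lower in D2. B6 replicates 3 and 5 stood apart from the other B6 mice. The summed level of 9 cortical projection neuron markers was 108232 and 110031 in these libraries, 16990 to 25939 in the other 3 B6 mice and 33495 to 72917 in the D2 mice, and none of the 9 was at 0 in any library. Among these markers Slc17a7, Neurod6 and Tbr1 were highest in B6 replicates 3 and 5, while Cux2 was lowest there. The summed level of 7 oligodendrocyte markers was 672163 and 668743 in the same libraries, against 465914 to 558625 in the other B6 mice and 352438 to 513891 in D2, with 4 of the 7 lower in D2. Libraries of a strain differed by more than sampling noise, also B6 replicates 3 and 5, the most alike (chi-square averaging 4.89 per gene).

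Of the 58 regulators, 7 differed between the strains, 3 higher and 4 lower in D2. Nova1, Elavl2 and Srrm2 were higher in D2 and Khdrbs1, Celf1, U2af2 and Hnrnpa3 were lower, with log2 fold changes between -0.23 and 0.42 (edgeR quasi-likelihood test, Benjamini-Hochberg adjusted p below 0.05 over all genes). The 7 made up 12.1% of the regulators. Over all 29883 genes 18.3% passed the same threshold, 8.50% higher and 9.83% lower in D2. Of the 10645 genes whose mean reached 1000 counts, a level that 57 of the 58 regulators reached, 22.3% passed. The share of regulators that changed was thus not above either background.

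Most strain differences of the regulators were small. The median absolute log2 fold change was 0.07 over the 58 regulators, 0.20 over all genes and 0.08 over the genes with at least 1000 counts. An absolute log2 fold change of 0.2 or more was seen for 5 regulators (8.62%), for 50% of all genes and for 17.7% of the genes with at least 1000 counts. The median SD between mice of a strain on the log2 scale was 0.0725 for the regulators and 0.0727 for the genes with at least 1000 counts. Of the regulators, 23 had a log2 fold change above 0 and 35 below 0, with a median of -0.01 (0.00 over all genes). With library totals in place of TMM normalization the split was reversed, at 35 above 0 with a median of 0.02 (0.03 over all genes), so no direction holds for the group as a whole. In bulk tissue, fewer cells of a type and less RNA per cell cannot be told apart.

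**Figure D1:**
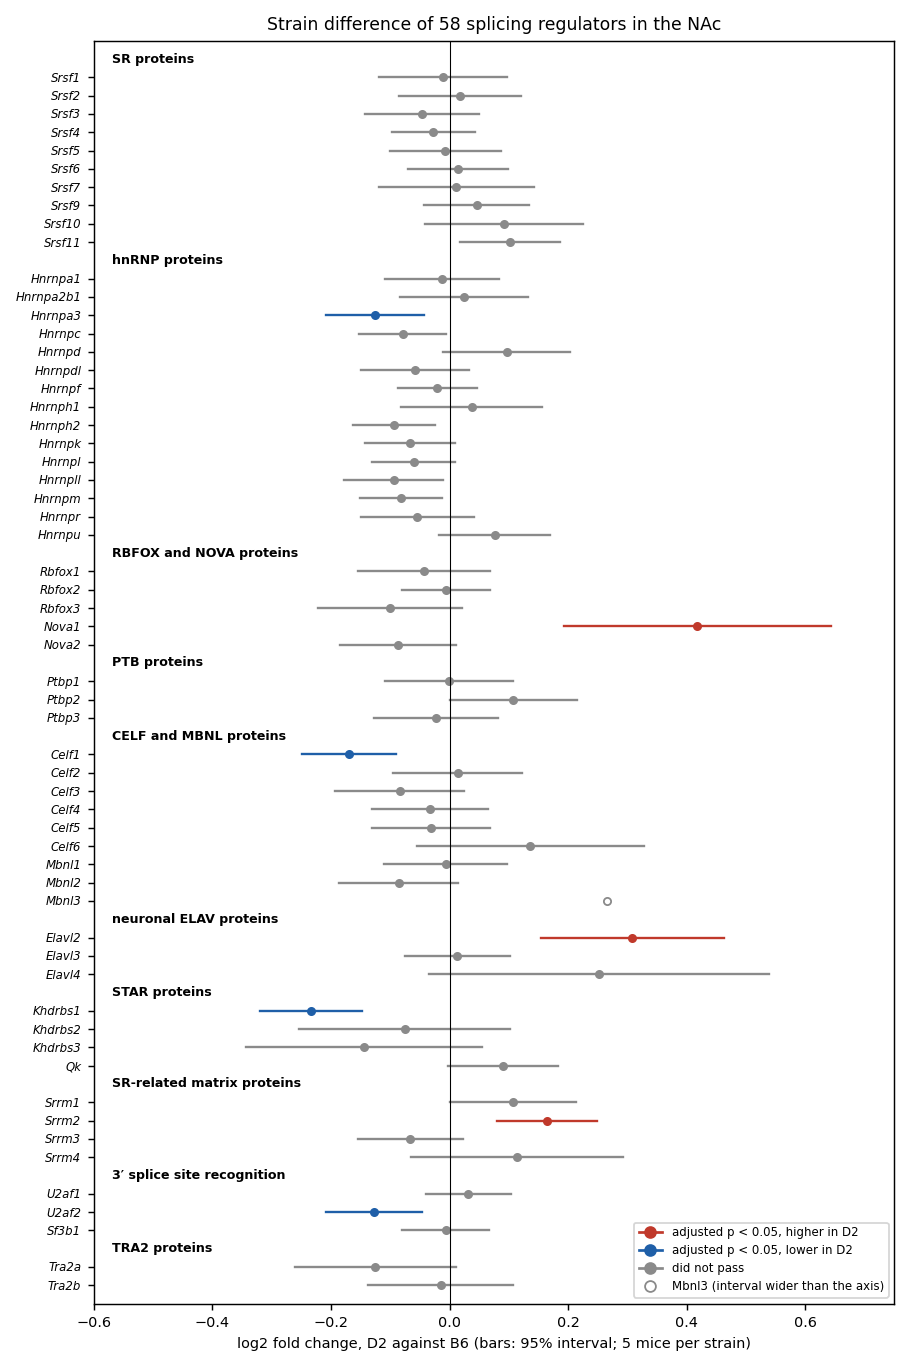
Log2 fold change of D2 against B6 (horizontal axis) for the 58 regulators grouped by family, with 95% intervals from the edgeR fit (5 mice per strain); red and blue mark the genes with an adjusted p below 0.05. Of the 58 values 5 were at least 0.2 in size, and the 7 that passed lay between -0.23 (Khdrbs1) and 0.42 (Nova1), in 7 different families.

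Among the proteins that recognise the 3′ splice site, U2af2, the large U2AF subunit that binds the polypyrimidine tract, was lower in D2. U2af2 had 18315, 19064, 17007, 18893 and 17708 normalised read counts in B6 replicates 1 to 5 and 16155, 16979, 16596, 16344 and 17179 in D2 replicates 1 to 5. The strains overlapped, since D2 replicate 5 was above B6 replicate 3, while every other D2 mouse was below every B6 mouse. U2af2 fell by 0.13 on the log2 scale (SE 0.037, edgeR adjusted p = 0.031), from 18197 ± 852 in B6 to 16651 ± 427 in D2 (SD, n = 5 each). U2af1, the small subunit that reads the AG at the intron end, had a log2 fold change of 0.03 (95% interval -0.04 to 0.10), and Sf3b1, the branch point factor of the U2 particle, one of -0.01 (-0.08 to 0.07). The call of U2af2 was lost with library totals (edgeR adjusted p = 0.15) and in 5 of the 10 fits that left out 1 mouse, those without B6 replicates 1, 2 or 4 or D2 replicates 1 or 4 (adjusted p 0.050 to 0.075).

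None of the 10 SR proteins passed the threshold. Their log2 fold changes ran from -0.05 for Srsf3 to 0.10 for Srsf11, the lowest adjusted p of the family was 0.096 (edgeR, Srsf11), and 6 of the 10 values were above 0. That count was 9 with library totals and 2 without B6 replicates 3 and 5. Srsf1, the founding SR protein, had 22097 ± 1780 normalised read counts in B6 and 21921 ± 442 in D2 (SD, n = 5 each), and Srsf2 had 14899 ± 1142 and 15076 ± 259. Srsf10, a splicing repressor when dephosphorylated, had a log2 fold change of 0.09 with a 95% interval of -0.04 to 0.22. The SR-like activators Tra2a and Tra2b had log2 fold changes of -0.13 (95% interval -0.26 to 0.01) and -0.02 (-0.14 to 0.11), and neither passed.

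Of the 4 SR-related matrix proteins, Srrm2 was higher in D2. SRRM2 is a scaffold of nuclear speckles, where splicing factors are stored, and its gene had the highest level per length of all 58 regulators, at 83.5 reads per kilobase of exon per 1000000 counted reads. Srrm2 had 125199, 113092, 118602, 124434 and 119581 normalised read counts in B6 replicates 1 to 5 and 135171, 138914, 130839, 135809 and 132821 in D2 replicates 1 to 5. The lowest D2 mouse was above the highest B6 mouse. The log2 fold change was 0.16 (SE 0.039, edgeR adjusted p = 0.0095), which held in all 10 fits that left out 1 mouse. Srrm1, a splicing coactivator, had a log2 fold change of 0.11 (95% interval 0.00 to 0.21), Srrm3 one of -0.07 (-0.16 to 0.02) and Srrm4, the neuronal activator of microexons, one of 0.11 (-0.06 to 0.29). None of these 3 passed.

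Of the 15 hnRNP proteins, Hnrnpa3 was lower in D2. HNRNPA3 belongs to the A/B group, which packages nascent RNA and mostly represses exons. Hnrnpa3 had 23685, 21230, 22093, 22057 and 21988 normalised read counts in B6 replicates 1 to 5 and 19925, 19818, 20192, 21718 and 20128 in D2 replicates 1 to 5. D2 replicate 4 was above B6 replicate 2, and the other 4 D2 mice were below every B6 mouse. Hnrnpa3 fell by 0.13 on the log2 scale (SE 0.038, edgeR adjusted p = 0.037), and its call was lost in 7 of the 10 fits without 1 mouse (those without B6 replicates 1, 3 or 4 or D2 replicates 1, 2, 3 or 5, adjusted p 0.053 to 0.086), with library totals (adjusted p = 0.14) and without B6 replicates 3 and 5 (adjusted p = 0.051).

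The other 14 hnRNP genes did not pass, with log2 fold changes between -0.09 and 0.10. The values of 11 of the 15 were below 0, a count that became 9 with library totals and 13 without B6 replicates 3 and 5. Hnrnph2 was nearest to the threshold, at -0.09 (edgeR adjusted p = 0.058), and passed with DESeq2 (adjusted p = 0.047). Hnrnpm, at 12925 ± 465 normalised read counts in B6 and 12212 ± 201 in D2 (SD, n = 5 each), did not pass (edgeR adjusted p = 0.10), although its strains did not overlap. Hnrnpc, whose protein coats long introns, had a log2 fold change of -0.08, Hnrnpl, a binder of CA repeats, -0.06, Hnrnpk, a binder of C-rich RNA, -0.07, and Hnrnpu, the scaffold attachment factor, 0.08. Hnrnpa1 and Hnrnpa2b1, the nearest relatives of Hnrnpa3, had log2 fold changes of -0.01 (95% interval -0.11 to 0.08) and 0.02 (-0.08 to 0.13). Hnrnph1 and Hnrnpa1 share stretches of near-identical sequence with other counted genes whose counts came to 28.2% and 25% of their own, so their values are uncertain. Those counts are of the whole genes, since reads in the shared stretches were not counted apart.

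The PTB proteins silence neuronal exons outside neurons (Ptbp1) and in immature neurons (Ptbp2). None of the 3 genes passed: Ptbp1 had 4382 ± 175 normalised read counts in B6 and 4380 ± 312 in D2 (SD, n = 5 each) and a log2 fold change of 0.00 (95% interval -0.11 to 0.11). Ptbp2 had 13441, 12234, 11556, 11998 and 11079 in B6 replicates 1 to 5 and 13170, 12885, 12508, 13785 and 12619 in D2 replicates 1 to 5. The strains overlapped through B6 replicate 1, and the log2 fold change was 0.11 (0.00 to 0.21, edgeR adjusted p = 0.17). Ptbp3 had a log2 fold change of -0.02.

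Nova1 showed the largest change of the 58 regulators. NOVA proteins bind YCAY motifs and control exons of synaptic transcripts. Nova1 had 11118, 9723, 7872, 9738 and 7396 normalised read counts in B6 replicates 1 to 5 and 13130, 11123, 10832, 13472 and 12696 in D2 replicates 1 to 5. The lowest values belonged to B6 replicates 3 and 5, and the strains overlapped only in that B6 replicate 1 was above D2 replicate 3. Nova1 was 1.34-fold higher in D2, with a log2 fold change of 0.42 (SE 0.104, 95% interval 0.19 to 0.64, edgeR adjusted p = 0.013). Nova1 remained past the threshold in all 10 fits without 1 mouse (0.34 to 0.50) and without B6 replicates 3 and 5, where the log2 fold change was 0.26 (adjusted p = 0.028).

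The other RBFOX and NOVA genes did not pass. RBFOX proteins bind UGCAUG, and Rbfox3 encodes NeuN, an antigen that marks mature neurons. Rbfox1 had a log2 fold change of -0.04 (95% interval -0.16 to 0.07), Rbfox2 one of -0.01 (-0.08 to 0.07) and Rbfox3 one of -0.10 (-0.22 to 0.02). Nova2, the NOVA paralog that prevails in the neocortex, had 12565, 13645, 14786, 13749 and 14928 normalised read counts in B6 replicates 1 to 5 and 12779 to 13527 in D2. Its highest values were those of B6 replicates 3 and 5, and its log2 fold change was -0.09 (-0.19 to 0.01, edgeR adjusted p = 0.23).

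Among the neuronal ELAV proteins, which bind AU-rich RNA in introns and in mRNA, Elavl2 was higher in D2. Elavl2 had 6292, 5760, 6921, 5484 and 6407 normalised read counts in B6 replicates 1 to 5 and 8834, 6983, 7353, 7424 and 7609 in D2 replicates 1 to 5. The lowest D2 mouse was above the highest B6 mouse, narrowly so for D2 replicate 2 against B6 replicate 3. The log2 fold change was 0.31 (SE 0.071, 95% interval 0.15 to 0.46, edgeR adjusted p = 0.0084), a 1.24-fold higher level, and it passed in all 10 fits without 1 mouse and without B6 replicates 3 and 5 (0.39).

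Elavl4 had the second widest spread between mice of all 58 regulators and did not pass with all mice. It had 5274, 4554, 7265, 4247 and 6785 normalised read counts in B6 replicates 1 to 5 and 7360, 6263, 6768, 6926 and 6166 in D2 replicates 1 to 5. B6 replicates 3 and 5 were inside the D2 range, and the other 3 B6 mice were below every D2 mouse. The log2 fold change was 0.25 (SE 0.132, edgeR adjusted p = 0.23), and 0.51 without B6 replicates 3 and 5 (SE 0.074, adjusted p = 3.2e-04). Elavl3 had 28618 ± 1685 normalised read counts in B6 and 28868 ± 352 in D2 (SD, n = 5 each), with a log2 fold change of 0.01 (95% interval -0.08 to 0.10).

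Of the 9 CELF and MBNL genes, Celf1 was lower in D2. CELF1 binds GU-rich RNA and opposes MBNL proteins on many developmentally regulated exons. Celf1 had 36319, 36342, 38383, 38300 and 37191 normalised read counts in B6 replicates 1 to 5 and 31110, 32912, 34311, 34463 and 33056 in D2 replicates 1 to 5. The highest D2 mouse was below the lowest B6 mouse. Celf1 fell by 0.17 on the log2 scale (SE 0.037, edgeR adjusted p = 0.0055), and the call held in all 10 fits without 1 mouse (-0.19 to -0.15) and without B6 replicates 3 and 5 (-0.16).

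The other CELF and MBNL genes did not pass. Celf2 to Celf5 had log2 fold changes of 0.01, -0.08, -0.03 and -0.03, each with an interval that included 0, and Celf6 had one of 0.14 (95% interval -0.05 to 0.33). Mbnl1 and Mbnl2, the muscleblind proteins of mature tissue, had log2 fold changes of -0.01 (-0.11 to 0.10) and -0.09 (-0.19 to 0.01). Mbnl3, the form of immature tissue, was barely detected, at 4.6 to 74.3 normalised read counts per mouse. Its log2 fold change of 0.26 had an interval of -0.91 to 1.44, turned to -0.32 without B6 replicates 3 and 5, the mice with its lowest counts, and ran from -0.17 to 0.55 with 1 mouse left out, so its direction was not resolved.

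Of the 4 STAR proteins, Khdrbs1 was lower in D2, with the smallest adjusted p of all 58 regulators. KHDRBS1 (Sam68) couples signalling to exon choice, among others in neurexin transcripts. Khdrbs1 had 15249, 15283, 13892, 14728 and 13509 normalised read counts in B6 replicates 1 to 5 and 12510, 11983, 12145, 12493 and 12668 in D2 replicates 1 to 5. The highest D2 mouse was below the lowest B6 mouse, and within B6 replicates 3 and 5 were the lowest. Khdrbs1 fell by 0.23 on the log2 scale (SE 0.040, edgeR adjusted p = 0.0010), and by 0.29 without B6 replicates 3 and 5.

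Its paralogs Khdrbs2 and Khdrbs3 (SLM1 and SLM2), which are mainly neuronal, did not pass, with log2 fold changes of -0.08 (95% interval -0.25 to 0.10) and -0.14 (-0.34 to 0.05). Khdrbs3 had 5323, 5155, 7012, 5381 and 7050 normalised read counts in B6 replicates 1 to 5 and 4907, 5331, 5495, 5745 and 5600 in D2 replicates 1 to 5. Its 2 highest values were those of B6 replicates 3 and 5, without which the log2 fold change was 0.03. Qk, whose protein quaking acts in oligodendrocytes and astrocytes, had 34131 ± 1524 in B6 and 36327 ± 1715 in D2 (SD, n = 5 each) and a log2 fold change of 0.09 (0.00 to 0.18, edgeR adjusted p = 0.18).

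**Figure D2:**
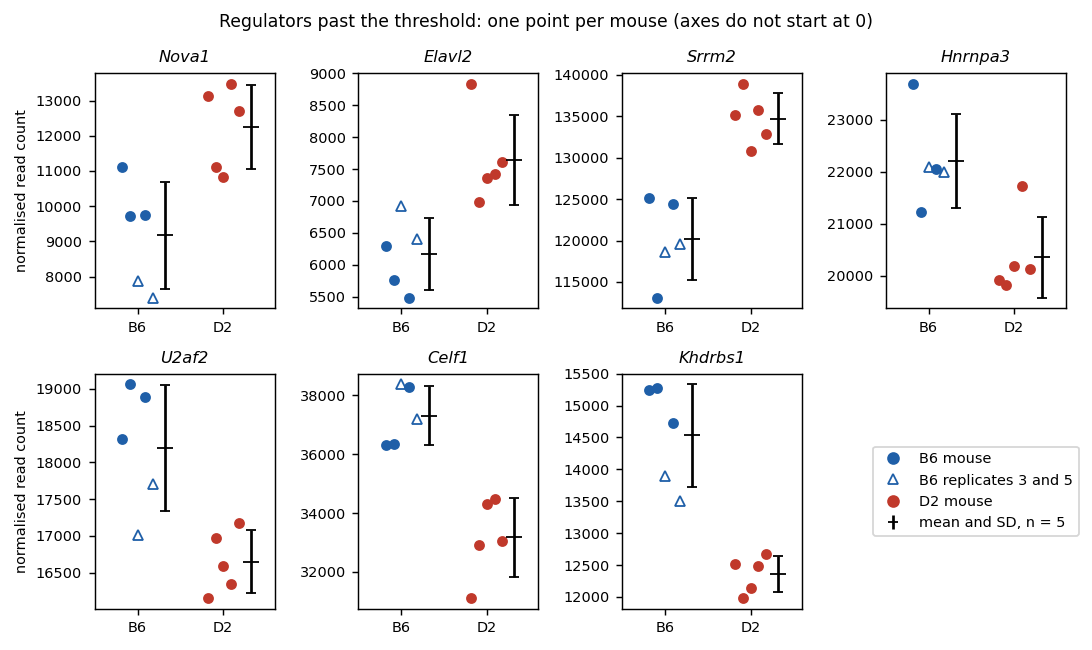
Normalised read counts (vertical axes, which do not start at 0) per mouse for the 7 regulators past the threshold, with mean and SD (n = 5 per strain); open triangles mark B6 replicates 3 and 5. The strains do not overlap for Elavl2, Srrm2, Celf1 and Khdrbs1, and overlap by 1 mouse or more for Nova1, U2af2 and Hnrnpa3.

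The normalised counts of the strains did not overlap for 5 of the 58 regulators (Elavl2, Srrm2, Celf1, Khdrbs1 and Hnrnpm), beside 16.0% of all genes. Values of 5 and 5 mice that do not overlap always give the smallest p of the 252 assignments in a two-sided exact permutation test, 0.0079. That test thus adds nothing to the lack of overlap.

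To ask whether a regulator changed relative to related genes, each of the 7 was set against selected genes of its family or complex. The log2 ratio was taken within each mouse, so no scaling of the libraries can move it. Not all pairs are paralogs: U2af1 encodes the other subunit of U2AF, and the Srrm genes were grouped as SR-related matrix proteins. The first gene of each ratio had passed the threshold, so the ratios are not independent of that call. Of 16 ratios, 8 differed between the strains (two-sided exact permutation tests over mice, Benjamini-Hochberg adjusted p below 0.05 over the 16), and 5 did not overlap. The unadjusted p of the exact test was 0.0079 for these 5, 0.016 for U2af2/U2af1 and Srrm2/Srrm3, 0.024 for Nova1/Nova2 and 0.040 for Celf1/Celf6 and Khdrbs1/Khdrbs2. Relative to Elavl3, Elavl2 was higher in D2 by 0.29 on the log2 scale (adjusted p = 0.025, exact test), while relative to Elavl4 the difference was 0.03 (adjusted p = 0.82, exact test). Relative to Nova2, Nova1 was higher by 0.51 (adjusted p = 0.048, exact test), and by 0.28 without B6 replicates 3 and 5 (adjusted p = 0.10, exact test).

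Celf1 fell by 0.18 on the log2 scale relative to Celf2 and by 0.14 relative to both Celf4 and Celf5, with no overlap (adjusted p = 0.025 each, exact tests), and the same ratios passed without B6 replicates 3 and 5 (adjusted p = 0.041 each, exact tests). Relative to Celf3 the difference was -0.08 (adjusted p = 0.11, exact test) and relative to Celf6 it was -0.31 (adjusted p = 0.063, exact test). U2af2 fell by 0.16 relative to U2af1 (adjusted p = 0.036, exact test) and by 0.18 without B6 replicates 3 and 5 (adjusted p = 0.041, exact test). Hnrnpa3 fell by 0.15 relative to Hnrnpa2b1 (adjusted p = 0.025, exact test), but the difference relative to Hnrnpa1 was -0.12 (adjusted p = 0.092, exact test), and without B6 replicates 3 and 5 the first of these no longer passed (adjusted p = 0.095, exact test).

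Srrm2 was higher by 0.23 relative to Srrm3 (adjusted p = 0.036, exact test, and 0.095 without B6 replicates 3 and 5), while relative to Srrm1 the difference was 0.06 (adjusted p = 0.22, exact test, and 0.041 without those mice) and relative to Srrm4 it was 0.04 (adjusted p = 0.75, exact test). Khdrbs1 did not differ beyond the spread relative to Khdrbs2 (-0.16, adjusted p = 0.063, exact test) or Khdrbs3 (-0.10, adjusted p = 0.55, exact test), and relative to Khdrbs3 it fell by 0.32 without B6 replicates 3 and 5 (adjusted p = 0.041, exact test). Without these mice 7 of the 16 ratios passed, and the smallest p that 56 assignments allow is 0.0179.

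Which regulators passed depended in part on B6 replicates 3 and 5. Without B6 replicates 3 and 5, 12 regulators passed, 5 higher and 7 lower in D2, when 19.2% of all genes did. Of the 7 named above 6 were among them, and Hnrnpa3 was lost. The gained genes were Elavl4 (0.51), Srrm4 (0.26), Khdrbs2 (-0.20), Hnrnpll (-0.12), Hnrnpr (-0.12) and Hnrnpk (-0.11). Srrm4 had 4931 and 4943 normalised read counts in B6 replicates 3 and 5, against 3682 to 4073 in the other 3 B6 mice and 4218 to 4906 in D2. Khdrbs2 had 1756 and 1698 in these mice, against 2104 to 2290 in the other B6 mice and 1773 to 2065 in D2.

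With the mean log2 level of the 9 cortical markers as a covariate, 17 regulators passed, 9 higher and 8 lower in D2, when 26.0% of all genes did. All 7 were among them, and Nova1 had a log2 fold change of 0.50. The 10 that were gained included Ptbp2 (0.13), Celf6 (0.20), Khdrbs3 (-0.20), Rbfox3 (-0.13), Nova2 (-0.11) and Srsf11 (0.11). Without B6 replicates 3 and 5, by contrast, the log2 fold changes were 0.05 for Ptbp2, 0.01 for Celf6, -0.03 for Rbfox3, -0.02 for Nova2 and 0.07 for Srsf11, and none of these passed (edgeR adjusted p 0.28 to 0.94). Khdrbs3 took a log2 fold change of -0.20 with the covariate and 0.03 without B6 replicates 3 and 5, and Elavl4 one of 0.20 (edgeR adjusted p = 0.10) and 0.51. The part of cortical cells in the strain differences was not tested beyond these fits.

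**Figure D3:**
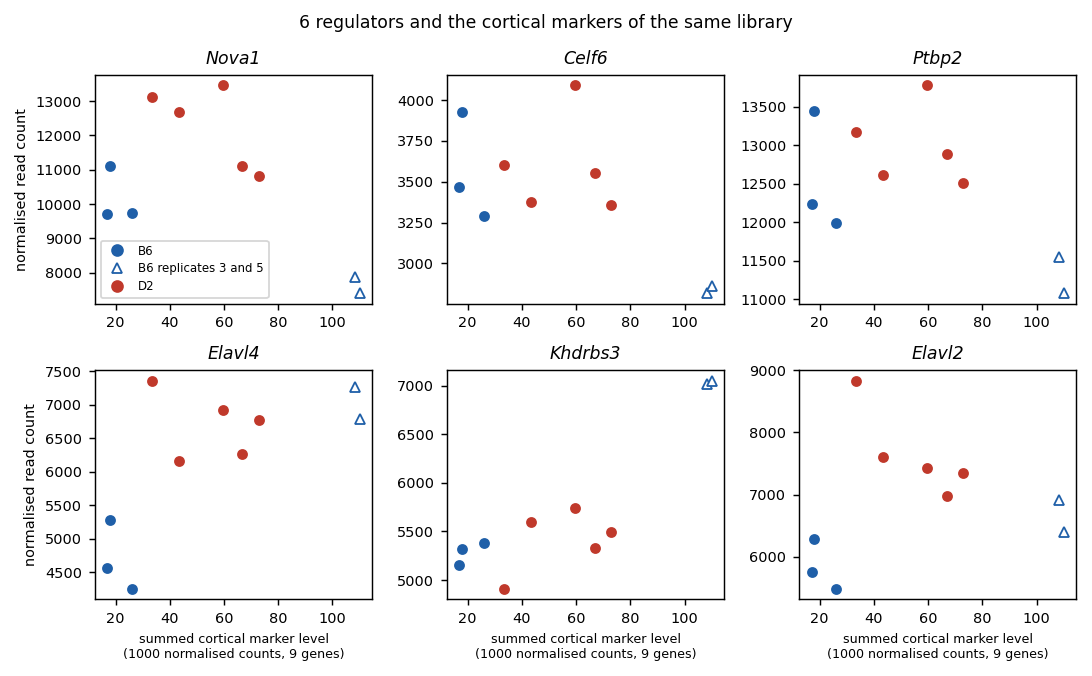
Normalised read counts of 6 regulators (vertical axes) against the summed level of the 9 cortical markers in the same library (horizontal axes, in units of 1000 normalised counts), 1 point per mouse; open triangles are B6 replicates 3 and 5. At marker sums of 108232 and 110031 these 2 mice had the lowest Nova1, Celf6 and Ptbp2 of all 10 mice and the highest Khdrbs3.

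**Figure D4:**
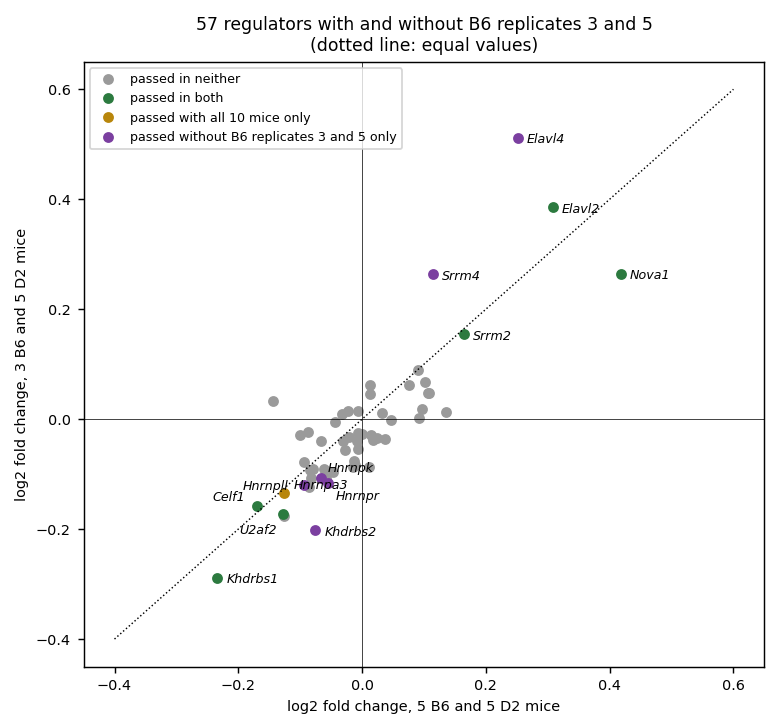
Log2 fold change of D2 against B6 with all 10 mice (horizontal axis) and without B6 replicates 3 and 5 (vertical axis), 1 point per regulator, with Mbnl3 left out. Points on the dotted line have equal values, Elavl4 lies above it (0.25 and 0.51) and Nova1 below it (0.42 and 0.26).

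The regulators covered a wide range of levels in the NAc. On the same per-length scale, averaged over all 10 mice, Srrm2 (83.5) was followed by Hnrnpa1 (69.8), Celf5 (67.5), Celf4 (58.6) and, after Srsf5, Hnrnpu (49.0). Rbfox2 and Rbfox1 had 34.2 and 29.1, and the levels of Nova2 and Nova1 were 14.9 and 7.93. At the lower end were Khdrbs3 (2.79), Khdrbs2 (1.03) and Mbnl3 (0.0234). The summed count of all 58 genes lay between 1272700 and 1363460 per mouse in B6 and between 1297320 and 1350470 in D2, so the total over the regulators overlapped between the strains.

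The regulators also differed in how much they varied between mice of a strain. After Mbnl3, the widest SDs on the log2 scale were those of Elavl4 (0.254), Nova1 (0.199), Khdrbs3 (0.172), Celf6 (0.163), Srrm4 (0.153) and Khdrbs2 (0.148). In each of these 6 genes B6 replicates 3 and 5 lay together, both above or both below the other 3 B6 mice. The narrowest were those of Hnrnpf (0.0258), Hnrnpl (0.0364) and Hnrnph2 (0.0397).

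The 7 regulators lie on 5 chromosomes (GRCm39). Hnrnpa3 (chr2:75489605-75499751) and Celf1 (chr2:90770584-90849842) are on the plus strand of chromosome 2, and Elavl2 (chr4:91138905-91289022) and Khdrbs1 (chr4:129594392-129636173) are on the minus strand of chromosome 4. Nova1 is at chr12:46741300-46866286 (minus), Srrm2 at chr17:24009506-24043715 (plus) and U2af2 at chr7:5065107-5082946 (plus). Of the 103 neighbours with 100 counts or more on average within 500 kb of these genes, 30 passed the threshold (29.1%), against 120 of 615 (19.5%) near the other 51 regulators and 23.8% of all genes of that level. Elavl2 had no such neighbour, and Nova1 had 1, Gm33869, which passed. Gm33869, whose exons overlap those of Nova1 on the same strand, rose from 1205 ± 255 normalised read counts in B6 to 2213 ± 274 in D2 (SD, n = 5 each, log2 fold change 0.88, edgeR adjusted p = 3.5e-04), and reads of the shared bases cannot be told apart.

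Exons of 41 of the 58 regulators overlap those of another annotated gene, 37 of them an antisense gene. The kit marks the strand, but whether the counting used it is not given in the sources used here. Srrm2 overlaps Elob, which had a log2 fold change of 0.00. Stretches of at least 150 bases with 98% identity or more to another gene were found in 9 regulators. For Hnrnpa3 these were 15 genes, of which 13 are pseudogenes and 10 were counted, at 58.4 counts in all or 0.275% of its own.

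The other genes of the splicing machinery were described with 8 lists that held 158 genes, of which 157 were measured and Raver1 was not analysed here. Of the 157, 25 passed (15.9%), 11 higher and 14 lower in D2, with a median log2 fold change of 0.01. In the U1 and Sm list 5 of 16 passed. The core Sm proteins Snrpf (-0.33), Snrpd3 (-0.27) and the U1 protein Snrpc (-0.30) were lower in D2, and the U1-associated Luc7l2 (0.23) was higher. Snrpc and Luc7l2 share such near-identical stretches with other counted genes whose counts came to 1280% and 26.7% of their own, so their values are uncertain. These are counts of the whole genes, not of reads in the shared stretches. The counted genes that share these stretches with Snrpc and Luc7l2 did not pass (edgeR adjusted p 0.40 to 0.91). None of the 15 U2 and branch point genes passed. Of 21 tri-snRNP genes Lsm4 was lower (-0.33), and of 20 Prp19 complex and catalytic genes Slu7 was higher (0.15) and Aqr lower (-0.13).

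Of 8 minor spliceosome genes Snrnp25 was higher (0.36), and of 10 genes for kinases and import of SR proteins, the enzymes that control SR protein activity, Srpk2 was lower (-0.12). In the list of 52 other splicing regulators 10 passed, 5 in each direction. Tial1 (0.22), the cold-inducible Rbm3 (0.20) and Rbm5 (0.19) were higher in D2, and Son (-0.18), a nuclear speckle scaffold like SRRM2, and Pcbp2 (-0.16) were lower. Among 15 genes of the exon junction complex and nonsense-mediated decay 5 passed. Magohb (0.43), Rbm8a (0.19) and Casc3 (0.16) were higher, and Smg9 (-0.23) and Upf1 (-0.20), the helicase of nonsense-mediated decay, were lower. The calls of Aqr (5 of 10 fits without 1 mouse, adjusted p 0.058 to 0.076), Srpk2 (7 of 10, 0.068 to 0.099) and Rbm3 (7 of 10, 0.052 to 0.083) rested on single mice of both strains.

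Rnps1, which couples splicing to the exon junction complex, had a larger difference than any of the 58 regulators, from 11812 ± 61.1 normalised read counts in B6 to 5456 ± 167 in D2 (SD, n = 5 each), a fall of 1.11 on the log2 scale (edgeR adjusted p = 1.7e-10). Its near-identical copy Rnps1-ps went the other way, from 42.7 ± 34.3 to 1415 ± 44.5, and D330041H03Rik, which overlaps it, rose from 447 ± 50.2 to 886 ± 66.0. Reads of Rnps1 and its copy may not be told apart, so its value is uncertain, and the part of the copy in the strain difference was not tested. Magohb, Snrnp25, Slu7 and Upf1 also overlap genes with larger strain differences of their own (Gm44958 5.23, Rhbdf1 0.92, Pttg1 -3.02 and Cers1 -0.57), and the Rbm8a copy Rbm8a2 had a log2 fold change of 2.50. Casc3 and Snrpf overlap such genes too, Gm12359 (-1.08) and Ccdc38 (-1.92), which averaged only 40.3 and 8.26 normalised read counts in B6.

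**Figure D5:**
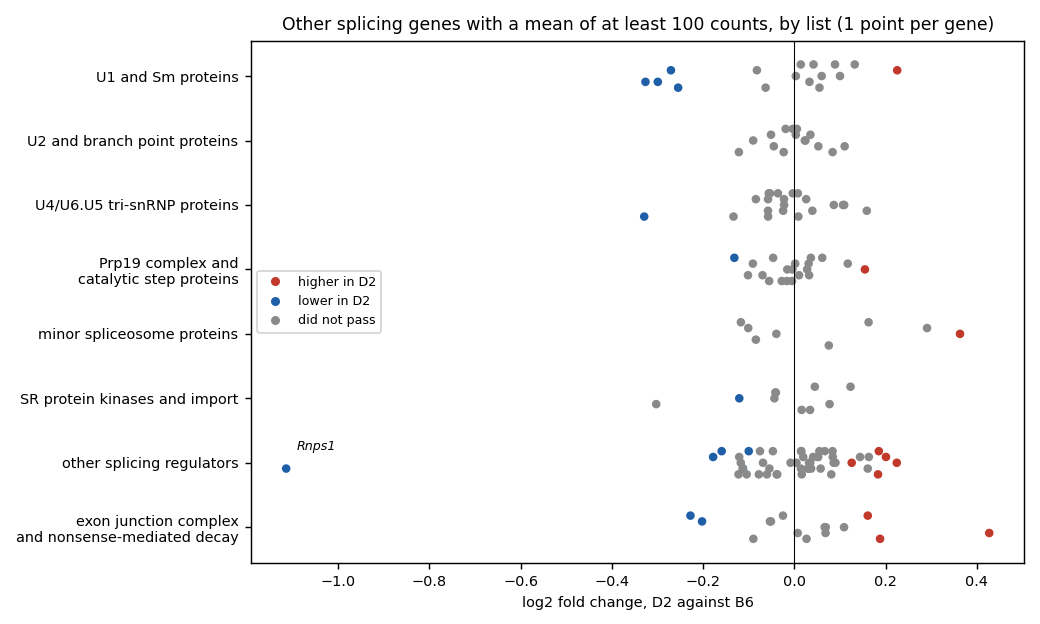
Log2 fold change of D2 against B6 (horizontal axis) for the other splicing genes averaging 100 counts or more, 1 point per gene and 1 row per list; red and blue mark genes with an adjusted p below 0.05. Rnps1 lies far to the left at -1.11, and the 15 genes of the U2 and branch point list stay between -0.12 and 0.11.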

How the data were processed

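Poly-A RNA from the NAc of 10 male mice, 5 per strain, was read as paired ends of 150 bases. The sample labels name Novogene as the maker of the libraries, where the methods name the VCU core and a stranded kit. Per the labels and methods, the authors trimmed reads with fastp, aligned them with STAR 2.7.10b to GRCm39 (Ensembl release 108), sorted them with SAMtools 1.6 and counted them with featureCounts, whose strand setting is not given in the sources used here. The authors deposited unnormalized counts for each gene and mouse. The lowest row median was 0.5, and the authors removed genes with a median of 0.

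Counts of all 29883 genes were tested with edgeR 4.0.16 (TMM, quasi-likelihood F test, strain only, two-sided) in R 4.3.3, adjusted over all genes by the Benjamini-Hochberg method, at a threshold of 0.05. Normalised read counts are counts divided by TMM-scaled library size, times the mean of those sizes. Standard errors are the absolute log2 fold change over the square root of F. Levels per kilobase used the union exon length of the GRCm39 annotation, which held 29519 of the genes. Single values were compared by exact permutation. The members and all gene lists were chosen with earlier results of these data known. The ratios between related genes and the fit without B6 replicates 3 and 5 were added after the data were seen. The lists were written from general knowledge. Every regulator past the threshold was named with its value per mouse, the others by family, and of each other list the 3 largest changes at most each way among genes averaging 100 counts or more. In simulated data for this comparison of 29883 genes, edgeR found 82 of 100 log2 changes of 0.3 and 100 of 100 of 1, and 12 calls were false. The simulation gave every gene the same dispersion and no deviation shared between mice. Changes below 0.3 in size, as most of the regulators past the threshold had, were not simulated. Similar sequences were found with BLAST+ 2.17.0. Alternatives were DESeq2 1.42.0, other scalings and filters, a block, a covariate and leaving out mice. No gene sequence is shown, and isoforms were not analysed here.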

Additional observations from a re-analysis of the deposited data

Results flagged for a closer look

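In 4 of the 116 groups of 5 mice tested, 1 mouse lay far from the other 4, where chance gives about 1 in 20 groups. Hnrnpa3 had 21718 normalised read counts in D2 replicate 4, against 19818 to 20192 in the other D2 mice, and without this mouse its log2 fold change was -0.15 in place of -0.13. Hnrnpll had 7508 in B6 replicate 5, against 8207 to 8404 in the other B6 mice. Ptbp3 had 3223 in B6 replicate 3, against 2853 to 2910. Mbnl3 had 74.3 in D2 replicate 4, against 18.9 to 33.0 in the other D2 mice.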

How the results depend on the processing

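Nova1, Elavl2, Srrm2, Khdrbs1 and Celf1 passed in every alternative run, and the direction of all 7 called regulators held in each. The number of regulators called was 5 to 8 with 1 mouse left out, of which 3 to 5 were higher and 2 to 5 lower in D2. Without B6 replicate 1, Nova2, Ptbp2 and Srrm1 were gained, and U2af2 and Hnrnpa3 were lost. With library totals, which moved the median of all genes by 0.03 on the log2 scale and the share of called genes that were lower in D2 from 53.6% to 45.04%, 5 regulators passed, 2 of them lower. DESeq2 and both count filters called 8, with Hnrnph2 added. The covariate of cortical markers called 17 (9 higher, 8 lower) and 44 of the other splicing genes, and leaving out B6 replicates 3 and 5 called 12 (5 higher, 7 lower). The causes were not tested.

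Some values changed sign, among them Mbnl3, from 0.26 to -0.32 without B6 replicates 3 and 5. Rbfox2 had a log2 fold change of 0.026 with library totals, 0.016 without B6 replicates 3 and 5 and -0.026 to 0.0035 with 1 mouse left out. Ptbp1 had 0.00038 with DESeq2, 0.00046 with its size factors, 0.031 with library totals, 0.0050 with the covariate and -0.042 to 0.022 with 1 mouse left out. Khdrbs3 had 0.033 without B6 replicates 3 and 5. The log2 ratio of Elavl2 to Elavl4 differed by -0.13 without these mice and by -0.034 to 0.079 with 1 mouse left out, and that of Srrm2 to Srrm4 by -0.11 and by -0.015 to 0.11.

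The replicate numbers of the titles do not pair the mice. Deviations of same-numbered mice correlated at 0.37, -0.40, 0.36, 0.03 and -0.29, and 2 of 10 libraries correlated best with their own number. With the number as a replicate block, 5 regulators passed, 3 higher and 2 lower, and U2af2 and Hnrnpa3 did not.

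At this depth 57 regulators averaged over 1000 counts. For Mbnl3, which had fewer than 100 in each mouse, counting error and spread between mice were not separated.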
